A study of Solanum lycopersicum with 6 samples.

Results

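The genes examined here were 10 tomato loci of nitrogen uptake and reduction, chosen by identifier: the nitrate transporters NRT1.1, NRT1.2 and 2 NRT2 loci, the NRT2 partner NAR2.1, the ammonium transporters AMT1;1 and AMT1;2, nitrate reductase and 2 nitrite reductase loci. The count table held rows for 9 of the 10, among 34688 gene models in all. AMT1;2 (Solyc04g050440) had no row under this identifier and was not analysed here. The table carries identifiers only, and the gene names are those that came with the list. A total of 7 members passed the filter on low counts, while NRT1.2 and the NRT2 locus Solyc11g069735 did not.

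The comparison was between bulk RNA-seq libraries of protoplasted roots (n = 3) and of whole roots (n = 3), all from wild-type seedlings of the cultivar M82. In both groups the material was the terminal 3 cm of primary roots, pooled from many seedlings, 7 days after sowing on agar with Murashige and Skoog salts, which supply nitrate and ammonium. Protoplasted roots had been digested for 2 h with cellulases (R10 and RS), Macerozyme and pectolyase in a buffered mannitol solution with potassium and calcium chloride, serum albumin and mercaptoethanol, and the freed cells were filtered and washed. Whole roots received no treatment and no mock incubation is named for them, so the effects of wall digestion, time in the solution and the loss of cells on the way cannot be told apart. The groups answer which transcripts differ once roots have been turned into protoplasts.

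Plants take up nitrate through 2 transporter families. In Arabidopsis, NRT1.1 works over a wide range of nitrate concentrations and also serves as a nitrate sensor, whereas NRT2 proteins act at low external nitrate and need the partner protein NAR2 at the plasma membrane. AMT1 proteins carry ammonium into root cells at low supply. Nitrate reductase turns nitrate into nitrite in the cytosol, nitrite reductase turns nitrite into ammonium in plastids, and in Arabidopsis the transcripts of NRT2 and of both enzymes respond quickly to nitrate.

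In whole roots NRT1.1 had the highest transcript level of the listed nitrate transporters. In protoplasted roots the NRT1.1 transcript fell 13.8-fold and that of the NRT2 locus Solyc11g069750 rose 8.94-fold. The other 5 genes tested, NAR2.1, AMT1;1, nitrate reductase and both nitrite reductase loci, had estimates of less than 1 in size on the log2 scale, and none of them passed an adjusted p of 0.05 in the fit without a replicate block. Thus 1 of 7 members was higher, where 17.0% of the 15966 genes tested were higher, and 1 of 7 was lower, where 18.7% of all genes were lower (edgeR quasi-likelihood test, p adjusted over all genes). The number of members that changed was therefore near that of the table at large. With the study's added threshold of a log2 fold change above 2 there was also 1 member higher, and with its mirror image of below -2, which was added here, 1 member lower, where 4.15% of all genes lay past the upper and 9.78% past the lower threshold. The median log2 fold change was 0.50 over the 7 members and 0.02 over all genes tested.

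Levels are given as normalized CPM, which are counts brought to a common library size by TMM normalization. Each transcript was read near its 3′ end, so that CPM were not divided by transcript length. How fully each gene model covers the 3′ end of its transcript was not checked. Orders, ratios and shares of different genes are therefore comparisons of counts captured, and need not equal those of the transcripts. The libraries held between 5198513 and 5790082 estimated counts. The estimated counts of all 9 members were whole numbers in all 6 libraries, so Kallisto divided no read of theirs with other transcripts in a way that leaves fractions. As a check of cell content, limited to the exodermis, 10 of 11 exodermal suberin genes were in the table. All 10 were lower in protoplasts at an adjusted p under 0.05 (edgeR quasi-likelihood test), where 18.7% of the 15966 genes tested were lower. The summed level of these 10 genes was 12.1 to 50.0 CPM in protoplasted and 1422 to 2812 CPM in whole roots. SlGPAT5 had no count in protoplasted replicates 1 and 2. The part of this shift in the results below was not tested, and in bulk libraries fewer cells of a type and less RNA per cell cannot be told apart.

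**Figure D1:**
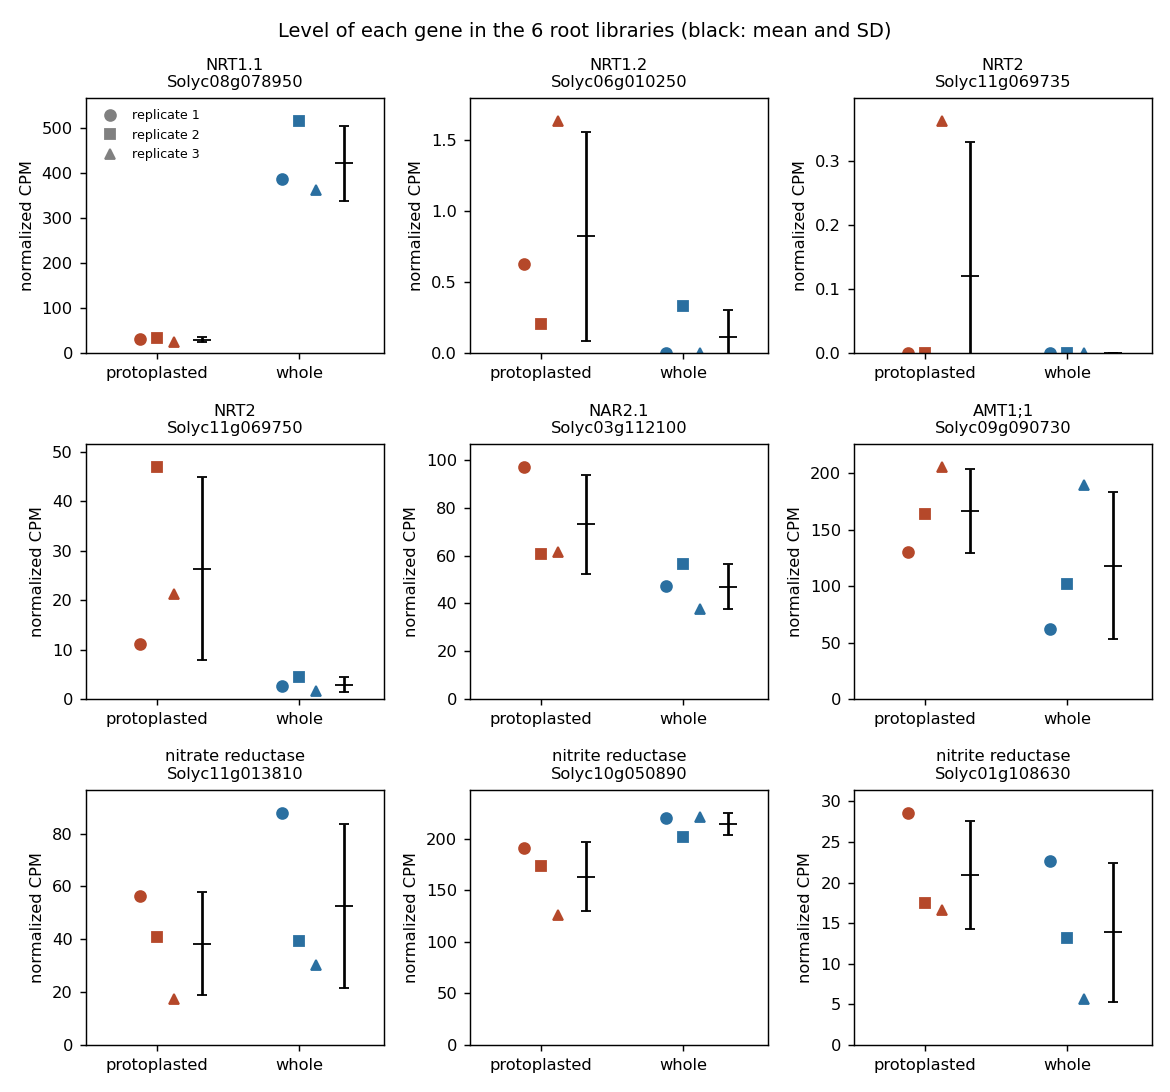
Normalized CPM (y axes, each from 0) of the 9 genes with a row in the table, in 3 protoplasted and 3 whole-root libraries; marker shapes give the replicate number, and black bars the mean and SD, drawn only down to 0. NRT1.1 lay between 24.6 and 35.0 CPM in the protoplasted libraries and between 362 and 515 CPM in the whole-root libraries, while NRT2 Solyc11g069750 showed the opposite order.

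NRT1.1 (Solyc08g078950.3.1) was the most abundant of the members in whole roots and only the fifth in protoplasts. It had 154, 170 and 136 counts in protoplasted replicates 1, 2 and 3, or 32.1, 35.0 and 24.6 CPM. In whole replicates 1, 2 and 3 it had 2415, 3089 and 2093 counts, or 386, 515 and 362 CPM. The groups did not overlap, and the lowest whole library stood far above the highest protoplasted one. The mean was 30.6 ± 5.34 CPM in protoplasted and 421 ± 82.1 CPM in whole roots (SD, n = 3 each), a log2 fold change of -3.78 (SE 0.26, 95% interval -4.37 to -3.20, adjusted p = 2.1e-04 from edgeR). Within replicate numbers the log2 difference was -3.59, -3.88 and -3.88, so the size of the drop was nearly equal across the 3 numbers. Among all 15966 genes, 462 had a lower log2 fold change.

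NRT1.2 (Solyc06g010250.3.1), a transporter of the same family, was close to the limit of detection. It had 3, 1 and 9 counts in protoplasted and 0, 2 and 0 counts in whole replicates 1, 2 and 3. Whole replicates 1 and 3, without a count, could still hold up to 0.479 and 0.519 CPM (3 counts, counting error only). The groups overlapped, and protoplasted replicate 3 alone gave most of the counts. With 13 counts in protoplasted and 2 in whole roots the ratio was 7.73, with an exact 95% counting interval of 1.75 to 70.6 that leaves out the spread between libraries. When genes with any count were tested, its log2 fold change was 2.67 (SE 1.36, adjusted p = 0.18 from edgeR).

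The 2 NRT2 loci, high-affinity nitrate transporters with neighbouring identifiers on chromosome 11, differed strongly in their counts. Solyc11g069735.1.1 had 0, 0 and 2 counts in protoplasted replicates 1, 2 and 3 and no count in whole roots. Every one of these values was at or under the floor of 3 counts in a library, and no fold change is given. Solyc11g069750.3.1 had 53, 228 and 117 counts in protoplasted replicates, or 11.1, 46.9 and 21.2 CPM. In whole roots it had 17, 27 and 9 counts, or 2.72, 4.50 and 1.56 CPM. Each protoplasted library was thus above each whole one, although the protoplasted libraries themselves were spread widely.

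The mean of Solyc11g069750.3.1 was 26.4 ± 18.5 CPM in protoplasted and 2.92 ± 1.48 CPM in whole roots (SD, n = 3 each). Its log2 fold change was 3.16 (SE 0.59, 95% interval 1.81 to 4.51, adjusted p = 0.0046 from edgeR), and 232 of all genes tested had a higher one. Without protoplasted replicate 2, its highest library, the log2 fold change was 2.43 (adjusted p = 0.021 from edgeR). Within replicate numbers the log2 difference was 2.03, 3.38 and 3.77. In whole roots this gene ranked 14408 by mean level among the genes tested, and in protoplasts 5771.

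NAR2.1 (Solyc03g112100.3.1), the partner of NRT2 transporters, showed a far smaller difference than Solyc11g069750. It had 465, 295 and 339 counts in protoplasted replicates 1, 2 and 3, or 97.04, 60.7 and 61.4 CPM, and 295, 339 and 217 counts in whole replicates, or 47.1, 56.5 and 37.5 CPM. The groups did not overlap, but protoplasted replicate 2 and whole replicate 2 were close. The mean was 73.0 ± 20.8 CPM in protoplasted and 47.0 ± 9.48 CPM in whole roots (SD, n = 3 each). The log2 fold change was 0.63 (SE 0.27, 95% interval 0.03 to 1.24, adjusted p = 0.094 from edgeR). With the replicate number as a block the estimate was 0.62 and the adjusted p was 0.031, so that the call depended on the block.

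The level of NRT2 relative to its partner was compared in each library. Summed NRT2 counts per NAR2.1 count were 0.114, 0.773 and 0.351 in protoplasted replicates 1, 2 and 3, and 0.0576, 0.0796 and 0.0415 in whole replicates. The groups did not overlap, and NAR2.1 exceeded NRT2 in all 6 libraries. The mean log2 ratio was -1.67 ± 1.39 in protoplasted and -4.12 ± 0.47 in whole roots (SD, n = 3 each), a difference of 2.45 (two-sided exact permutation test, p = 0.1, the smallest possible with 3 libraries against 3). Leaving out 1 library at a time gave differences of 1.80 to 3.18.

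Among the counts of the 4 nitrate transporters, the balance between the families also differed. This share was chosen after the values had been seen and is given as a description. NRT2 took 25.2% of these counts in protoplasted replicate 1 (95% Wilson interval 19.8 to 31.5%), 57.1% in replicate 2 (52.2 to 61.9%) and 45.1% in replicate 3 (39.2 to 51.1%). In whole roots it took 0.699% in replicate 1 (0.437 to 1.12%), 0.866% in replicate 2 (0.596 to 1.26%) and 0.428% in replicate 3 (0.225 to 0.812%). The intervals cover counting error within a library only and treat each count as independent. They leave out the spread between libraries. The summed level of the 4 transporters was 57.9 ± 21.0 CPM in protoplasted and 424 ± 83.7 CPM in whole roots (SD, n = 3 each). The gain in NRT2 CPM was thus small beside the fall in NRT1.1 CPM.

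**Figure D2:**
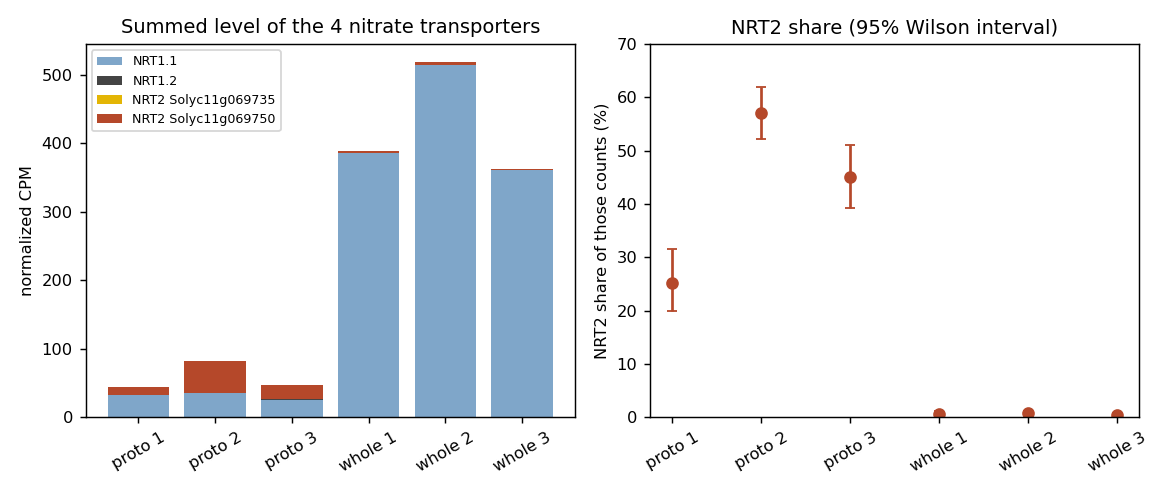
Left, normalized CPM of NRT1.1, NRT1.2 and both NRT2 loci stacked for each library, protoplasted (proto) 1 to 3 and whole 1 to 3; right, NRT2 as a percentage of the counts of these 4 genes, with 95% Wilson intervals. The summed level was lower in every protoplasted library, and the NRT2 share ran from 25.2 to 57.1% there, against less than 1% in whole roots.

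AMT1;1 (Solyc09g090730.2.1), a high-affinity ammonium transporter, had the highest mean level of the members in protoplasts, but nitrite reductase Solyc10g050890 was higher in protoplasted replicates 1 and 2. AMT1;1 had 626, 796 and 1136 counts in protoplasted replicates 1, 2 and 3, or 131, 164 and 206 CPM, and 389, 615 and 1097 counts in whole replicates, or 62.2, 102 and 190 CPM. The groups overlapped, because whole replicate 3 exceeded protoplasted replicates 1 and 2. Both groups had their lowest value in replicate 1 and their highest in replicate 3. The mean was 167 ± 37.6 CPM in protoplasted and 118 ± 65.1 CPM in whole roots (SD, n = 3 each), a log2 fold change of 0.50 (SE 0.38, 95% interval -0.37 to 1.37, adjusted p = 0.34 from edgeR).

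For AMT1;1 the call depended on how replicates entered the fit. Protoplasts were higher in 3 of 3 replicate numbers, with log2 differences of 1.07, 0.68 and 0.12. With the replicate block the estimate was 0.62 (SE 0.19, adjusted p = 0.027 from edgeR). Without a block it was 1.02 without whole replicate 3 (adjusted p = 0.041 from edgeR), 0.19 without whole replicate 1 (adjusted p = 0.68 from edgeR) and 0.28 without protoplasted replicate 3 (adjusted p = 0.64 from edgeR). In the blocked fit 3 of 7 members were higher (NRT2 Solyc11g069750, NAR2.1 and AMT1;1) and 1 of 7 lower (NRT1.1), while 25.0% of all genes were higher and 24.3% lower in that fit.

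Nitrate reductase (Solyc11g013810.3.1), which produces nitrite, varied more between libraries of a group than between groups. It had 270, 199 and 97 counts in protoplasted replicates 1, 2 and 3, or 56.3, 40.9 and 17.6 CPM, and 550, 236 and 175 counts in whole replicates, or 87.9, 39.3 and 30.2 CPM. The groups overlapped, and replicate 1 was the highest library in both. The mean was 38.3 ± 19.5 CPM in protoplasted and 52.5 ± 31.0 CPM in whole roots (SD, n = 3 each). The log2 fold change was -0.46 (SE 0.49, 95% interval -1.58 to 0.66, adjusted p = 0.50 from edgeR), so that levels in protoplasts from 0.335 to 1.58 times those in whole roots lay within the interval. Without whole replicate 1 the estimate was 0.13.

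The nitrite reductase locus Solyc10g050890.2.1 was the second most abundant member in both groups. It had 913, 843 and 694 counts in protoplasted replicates 1, 2 and 3, or 191, 173 and 126 CPM, and 1379, 1212 and 1276 counts in whole replicates, or 220, 202 and 221 CPM. Every protoplasted library lay below every whole one, by a small margin for protoplasted replicate 1. The mean was 163 ± 33.6 CPM in protoplasted and 214 ± 10.7 CPM in whole roots (SD, n = 3 each), with a log2 fold change of -0.39 (SE 0.22, 95% interval -0.88 to 0.10, adjusted p = 0.19 from edgeR). With the block in edgeR the adjusted p was 0.070, and with the block in limma-voom it was 0.045.

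The other nitrite reductase locus, Solyc01g108630.3.1, had far fewer counts. It had 137, 85 and 92 counts in protoplasted replicates 1, 2 and 3, or 28.6, 17.5 and 16.7 CPM, and 142, 79 and 33 counts in whole replicates, or 22.7, 13.2 and 5.70 CPM. The groups overlapped, with replicate 1 the highest in each. The mean was 20.9 ± 6.66 CPM in protoplasted and 13.9 ± 8.52 CPM in whole roots (SD, n = 3 each), a log2 fold change of 0.59 (SE 0.47, 95% interval -0.47 to 1.65, adjusted p = 0.35 from edgeR). With the block the adjusted p was 0.060, and protoplasts were higher in 3 of 3 replicate numbers.

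The ratios between the reductases overlapped between the groups. Nitrate reductase counts per summed nitrite reductase count were 0.257, 0.214 and 0.123 in protoplasted replicates 1, 2 and 3, and 0.362, 0.183 and 0.134 in whole replicates. The groups overlapped, and the mean log2 ratio was -2.40 ± 0.55 in protoplasted and -2.27 ± 0.73 in whole roots (SD, n = 3 each, two-sided exact permutation test, p = 0.9). Solyc10g050890 exceeded Solyc01g108630 by 6.66, 9.92 and 7.54 times in protoplasted replicates and by 9.71, 15.3 and 38.7 times in whole replicates, so that these ratios overlapped too. The mean log2 ratio of these loci was 2.99 ± 0.29 in protoplasted and 4.16 ± 1.02 in whole roots (SD, n = 3 each), a difference of -1.18 (two-sided exact permutation test, p = 0.2). This difference was -0.62 without whole replicate 3 and -1.62 without whole replicate 1.

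**Figure D3:**
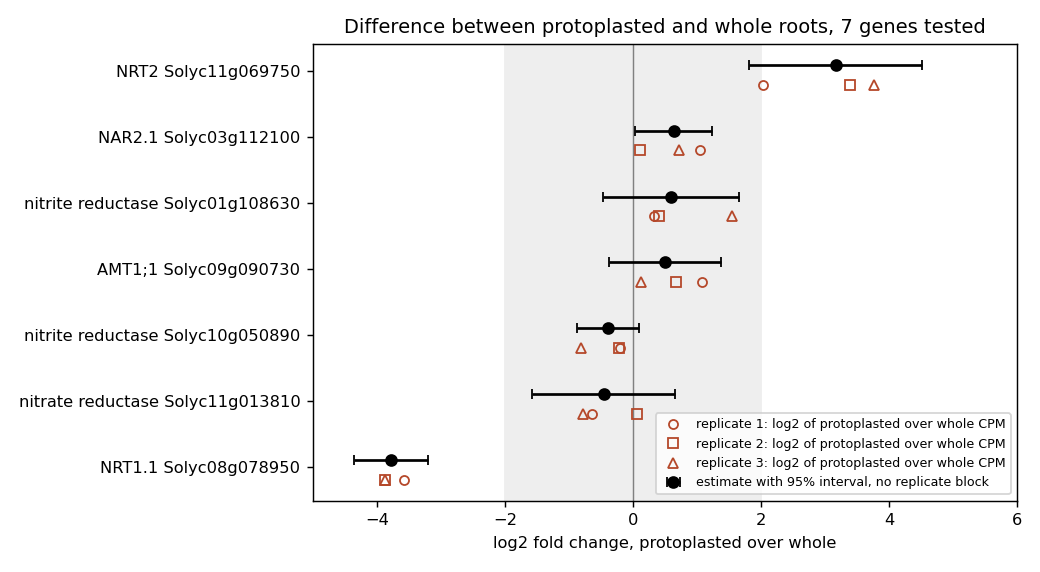
Log2 fold change (x axis, protoplasted over whole) of the 7 genes tested: black points and bars give the edgeR estimate without a replicate block and its 95% interval, open symbols the log2 CPM difference within each replicate number, and the grey band runs from -2 to 2. Only NRT2 Solyc11g069750 and NRT1.1 lay outside the band, at 3.16 and -3.78.

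Of the 7 members tested, 2 had non-overlapping groups with protoplasts higher (NRT2 Solyc11g069750 and NAR2.1) and 2 with protoplasts lower (NRT1.1 and nitrite reductase Solyc10g050890), while 25.1% and 25.6% of all genes were separated in these directions. The other 3 members overlapped. All 9 members together took 0.05004, 0.05034 and 0.04628% of the estimated counts in protoplasted replicates 1, 2 and 3, and 0.09160, 0.09670 and 0.08641% in whole replicates. The mean share differed by -0.0427 percentage points (two-sided exact permutation test, p = 0.1). NRT1.1 was the largest contributor in each whole-root library. The lower share was not a fall of all members, since 4 of the 7 tested had log2 estimates above 0 and 3 below.

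The order of levels differed between the groups. By mean level, AMT1;1 came first in protoplasts, followed by nitrite reductase Solyc10g050890, NAR2.1, nitrate reductase, NRT1.1, NRT2 Solyc11g069750 and nitrite reductase Solyc01g108630. AMT1;1 and nitrite reductase Solyc10g050890 overlapped there, as did each neighbouring pair from nitrate reductase to nitrite reductase Solyc01g108630. In whole roots the order was NRT1.1, nitrite reductase Solyc10g050890, AMT1;1, nitrate reductase, NAR2.1, nitrite reductase Solyc01g108630 and NRT2 Solyc11g069750. Of these neighbours, only AMT1;1 with nitrate reductase and nitrate reductase with NAR2.1 overlapped in their library values. NRT1.2 and NRT2 Solyc11g069735 came last in both groups.

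**Figure D4:**
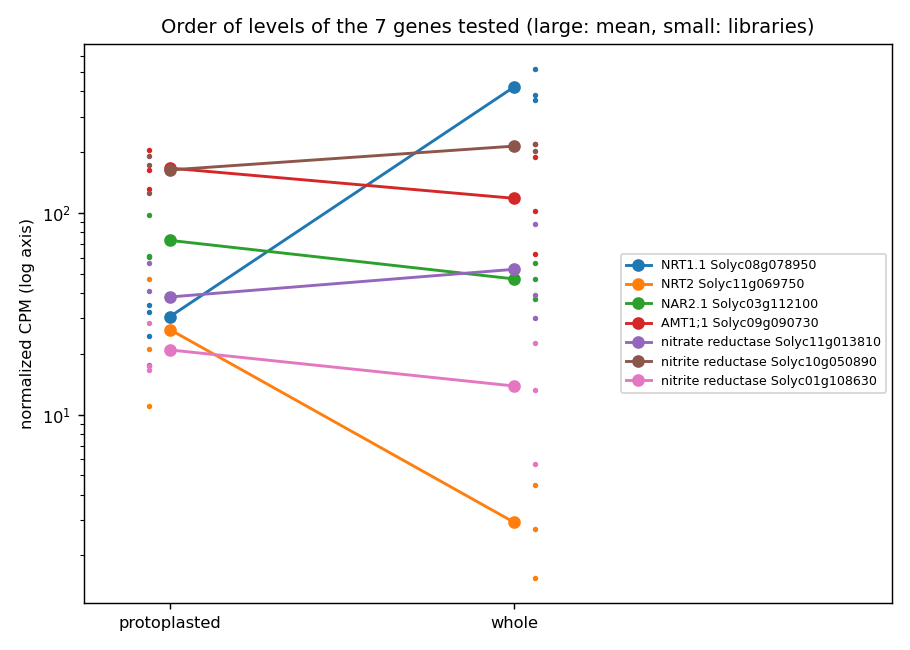
Mean normalized CPM (log axis) of the 7 genes tested in protoplasted (left) and whole roots (right), joined by lines, with small points for the single libraries. NRT1.1 stood at 30.6 CPM in protoplasts and 421 CPM in whole roots, and NRT2 Solyc11g069750 at 26.4 CPM in protoplasts and 2.92 CPM in whole roots.

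The spread within groups differed among the members. The coefficient of variation of NRT1.1 was 17.5% in protoplasted and 19.5% in whole roots, below the medians over all genes tested of 25.1% in protoplasted and 25.2% in whole roots. These medians were not matched for level, and NRT1.1 ranked 352 by mean level among the genes tested in whole roots. For NRT2 Solyc11g069750 the coefficient of variation was 70.0% in protoplasted and 50.7% in whole roots. The whole-root value rests on 17, 27 and 9 counts, so that counting error is part of it. Nitrite reductase Solyc10g050890 varied by 20.6% in protoplasted and 5.01% in whole roots, while nitrate reductase varied by 51.0% in protoplasted and 59.1% in whole roots.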

How the data were processed

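Per the labels, QuantSeq FWD libraries were made from total RNA. The authors trimmed reads with Trim Galore 0.6.6, pseudo-aligned read 1 to ITAG4.1 cDNA with Kallisto 0.46.2 and deposited estimated counts per gene model, without normalization. Strand use was not given in the sources used here.

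Estimated counts were rounded, filtered (filterByExpr, minimum count 10, minimum total 15), TMM-normalized and tested in edgeR 4.0.16 (R 4.3.3) by the quasi-likelihood method, with Benjamini-Hochberg adjustment over all genes. Standard errors were the log2 fold change divided by the square root of F. Alternatives were a replicate block, changed filters or normalization, DESeq2 1.42.0, limma-voom (limma 3.58.1), and omission of each library. Scripts were tested on simulated data.

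Deviations from the group means correlated at 0.43, 0.11 and 0.54 between same-numbered libraries 1, 2 and 3. Between libraries of unlike numbers the correlations were -0.47 to 0.03. In both groups library 2 differed less from libraries 1 and 3 than these did from each other. The low correlation for number 2 therefore cannot show that less was shared there. The numbers come from the titles, which name no shared batch. Libraries of a group differed beyond counting noise (lowest chi-square over its degrees of freedom, 14.2), so none was a copy of another. This check cannot tell separate samples from repeated preparations of the same RNA. The paper states in general that n counts biological samples and that experiments were repeated; no source names separate cultures for these libraries, so p-values measure the spread between them, which may be technical. All members are named. Members, lists and tests were chosen with earlier results of these data known.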

Additional observations from a re-analysis of the deposited data

How the results depend on the processing

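NRT1.1 and NRT2 Solyc11g069750 kept their direction and their call in each alternative that gave a value: the log2 fold change ranged from -3.95 to -3.62 for NRT1.1 and from 2.43 to 3.60 for NRT2. The filter of at least 10 counts in every library removed NRT2, which has 9 counts in whole replicate 3, and left 0 members higher (14.6% of all genes were higher there) and 1 past the log2 threshold of 2 in size. With the replicate block in edgeR 3 members were higher, and with limma-voom and the block 3 were higher and 2 lower, the second being nitrite reductase Solyc10g050890; in that last fit 26.2% of all genes were higher and 25.1% lower. The cause of the differences from the fit without a block was not tested; apart from the calls of NAR2.1, AMT1;1 and that locus, the block changed no call of a member. Leaving out 1 library at a time gave from 1 to 2 members higher, with AMT1;1 added without whole replicate 3, where 12.5% of all genes were higher; over these fits 9.14 to 16.7% of all genes were higher. These fits moved nitrate reductase between -0.88 and 0.13, positive only without whole replicate 1. The difference in the log2 ratio of nitrate reductase to nitrite reductase, -0.13 over all libraries, ran from -0.44 to 0.28 in them and turned positive without whole replicate 1 or protoplasted replicate 3. The difference in the NRT2 to NAR2.1 ratio stayed positive in all 9 alternatives. The ratio of AMT1;1 to AMT1;2 was not run, because the table had no row for AMT1;2 under its identifier. With library size only, the median of all genes was -0.14, against 0.02 with TMM. Precision was lowest for NRT1.2 and both NRT2 loci. Counts of NRT1.2 and NRT2 Solyc11g069735 were few in both groups. NRT2 Solyc11g069750 had few counts in whole roots and varied widely between the protoplasted libraries.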
